A study of Arabidopsis thaliana with 12 samples.

Results

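ATG3 and 7 forms of ATG8, genes of the autophagy machinery of Arabidopsis thaliana, were followed in mature seed. They were chosen as the probe sets whose single gene in the platform annotation was ATG3 or a form of ATG8. The choice gave 8 probe sets, 1 for each gene, of 22746 that are not array controls. They are ATG3 (AT5G61500), ATG8B (AT4G04620), ATG8C (AT1G62040), ATG8D (AT2G05630), ATG8E (AT2G45170), ATG8F (AT4G16520), ATG8G (AT3G60640) and ATG8H (AT3G06420). The annotation lists 2 further genes of the family under older symbols, APG8A (AT4G21980, ATG8A) and APG8H (AT3G15580, ATG8I). Both are described beside the others and stay out of the counts over the 8 genes unless they are named.

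Autophagy encloses cytoplasm in a double membrane, the autophagosome, and delivers it to the vacuole for breakdown and reuse. ATG8 proteins resemble ubiquitin. Many of them are first trimmed by the protease ATG4. They are activated by ATG7 and joined by the conjugating enzyme ATG3 to the membrane lipid phosphatidylethanolamine. Lipid-bound ATG8 takes part in growth of the membrane and binds receptors that carry cargo. In plants ATG8 is a gene family, and autophagy is known for recycling nutrients and for helping cells through starvation and other stress. Seeds of autophagy mutants have been studied for nitrogen filling and storage.

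RNA was measured on 12 Affymetrix ATH1 arrays, 3 in each of 4 groups of the Landsberg erecta (Ler) background, with seed collected from opened siliques. In the first group, wild-type plants were kept at 20 °C in 16 h days up to flowering and at 10 °C while their seed matured (10 °C seed). The second group was wild-type seed from plants grown at 20 °C in 8 h days (short-day seed). The third came from plants with the flowering-time mutation ft-1, which delays flowering, grown at 20 °C in 16 h days (ft-1 seed). The reference was wild-type seed from 20 °C and 16 h days (reference seed). The genotype and title of the third group give ft-1, whereas its source name is Glabra. The mutated gene was not analysed here, so that label was not checked. Nothing in the labels says that arrays of a group came from separate plants or harvests. The p-values therefore rest on the variation among these arrays alone, part or all of which may be technical.

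A signal is the linear intensity of a probe set after MAS5 scaling of each array. Signals summed over an array ranged from 3516240 to 4294736, and the number of arrays limits the precision. A gene was called risen or fallen at an adjusted p under 0.05 in limma's test of log2 signal, with adjustment over the 13648 probe sets tested. All 8 genes and both further ones were bright enough to be tested. Levels of different probe sets were not set against each other, because probes differ in how strongly they bind. In whole seed, fewer cells of a type and less RNA per cell cannot be told apart. The seed label was checked with 4 of 17 seed storage and maturation markers that had a named probe set. Their summed signal was 33550 to 36310 in 10 °C seed, 23660 to 25380 in short-day seed, 18810 to 22640 in ft-1 seed and 17990 to 21350 in reference seed, so maturation transcripts were bright in all 4 groups. Of 21 green tissue markers, 6 were named, and their summed signal was 1077 to 1228 in 10 °C seed, 837 to 979.6 in short-day seed, 641 to 890.1 in ft-1 seed and 820.2 to 1302 in reference seed. Reference array 3 stood apart from the other reference arrays in some of these markers and in a pollen marker. RCA was at 40.8 there, against 368 and 370.0, and PSBW at 51.8, against 140.1 and 147. PSBY was at 13.85, against 33.7 and 54.3, and PSAE-1 at 7.85, against 23.5 and 35.5. LHCB4.1 and LHCB4.2 were not low on that array. LHCB4.1 was at 607.6 there, against 538.7 and 598.0, and LHCB4.2 at 98.37, against 90.13 and 97.63. The pollen marker PGA3 was at 34.7 there, against 5.22 and 7.63. Results that turn on this array are given with and without it.

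Seed matured at 10 °C had higher ATG3, ATG8G and ATG8C than reference seed. These 3 of the 8 genes rose and 0 fell, against 31.9% of all tested probe sets that passed in either direction and 11.3% that rose. ATG3 rose 2.31-fold, ATG8G 2.09-fold and ATG8C 1.52-fold. The change was above 0 for each of the 8 genes, with a median of 0.68 on the log2 scale, beside a median of -0.16 over all tested probe sets. At an unadjusted p under 0.05 there were 5, beside 5872 of all 13648 tested probe sets. In 3 genes all 10 °C arrays lay above all reference arrays, as in 18.8% of tested probe sets. Both further forms rose as well, which made 5 of 10.

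ATG3, the conjugating enzyme, had log2 signals of 9.39, 8.90 and 9.28 in 10 °C seed, 8.08, 8.30 and 7.92 in short-day seed, 8.22, 8.53 and 8.14 in ft-1 seed, and 7.71, 8.00 and 8.23 in reference seed. Every 10 °C array lay above all 9 others, and the 3 groups from 20 °C overlapped. ATG3 averaged 9.19 ± 0.26 in 10 °C seed and 7.98 ± 0.26 in reference seed (SD, n = 3 each). The log2 change was 1.21 (SE 0.20, limma adjusted p = 0.0011), and the 95% interval of the fold ran from 1.71 to 3.11. ATG3 passed with any 1 of the 12 arrays left out.

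Among the ATG8 forms, which code for the ubiquitin-like protein itself, ATG8G had the largest rise of the 7. Its signals were 446, 268.5 and 438 in 10 °C seed, 209, 285 and 129 in short-day seed, 206, 208 and 158 in ft-1 seed, and 174, 192 and 171 in reference seed. All 3 arrays from 10 °C lay above the reference and ft-1 arrays, while short-day array 2 lay above the lowest of them. The log2 change over the reference was 1.06 (SE 0.27, limma adjusted p = 0.0104). Without 10 °C array 1 it was 0.94 with a limma adjusted p of 0.0516.

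ATG8C had signals of 1043, 668 and 832 in 10 °C seed, 688, 985 and 662 in short-day seed, 832, 897 and 679 in ft-1 seed, and 519, 485 and 655 in reference seed. All 9 arrays of the other 3 groups lay above the 3 reference arrays, by a narrow margin for the lowest. Its log2 change at 10 °C was 0.60 (SE 0.21, limma adjusted p = 0.0419). This is the least firm of the 3 calls: it passed in 10 of 23 alternative settings and was lost without 10 °C array 1 or 3, reference array 1 or 2, ft-1 array 1 or short-day array 1, with log2 changes of 0.442 to 0.605.

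ATG8H and ATG8E had changes of similar size that did not pass. ATG8H had signals of 2571, 1642 and 1912 in 10 °C seed, against 927, 1093 and 1671 in reference seed, a log2 change of 0.75 (SE 0.28, limma adjusted p = 0.0513). ATG8E had 368, 281 and 333.5 in 10 °C seed, against 152, 154 and 282 in reference seed, a log2 change of 0.79 (SE 0.35, limma adjusted p = 0.0929). In both genes reference array 3 was the high one and overlapped the 10 °C arrays. Without that array the log2 changes were 1.00 for ATG8H and 1.09 for ATG8E, both passed, and 5 of the 8 genes rose. ATG8H also passed without any 1 of the ft-1 arrays, short-day array 2 or 10 °C array 2, and ATG8E without short-day array 3. Without 10 °C array 1, 1 of the 8 genes rose.

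ATG8B, ATG8F and ATG8D showed smaller changes, and in each the 10 °C and reference arrays overlapped. ATG8B had signals of 152, 94.0 and 102 in 10 °C seed, against 79.2, 101 and 74.9 in reference seed, a log2 change of 0.43 (95% interval -0.18 to 1.04, limma adjusted p = 0.272). ATG8F ranged from 1364 to 1675 in 10 °C seed and from 963 to 1613 in reference seed, with a log2 change of 0.33 (95% interval -0.12 to 0.78). ATG8D ranged from 260 to 379 in 10 °C seed and from 226 to 366 in reference seed, with a log2 change of 0.23 (95% interval -0.29 to 0.76). These intervals still allow rises of 1.69-fold to 2.05-fold. Single arrays moved all 3 changes, and none passed with any 1 array left out. ATG8D was at 0.079 without reference array 1, 0.426 without reference array 3, 0.402 without 10 °C array 2 and 0.131 without 10 °C array 3. ATG8F was at 0.162 without reference array 1 and 0.534 without reference array 3. ATG8B was at 0.215 without 10 °C array 1.

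Both further forms rose at 10 °C. ATG8A had signals of 833, 599.7 and 703 in 10 °C seed, against 284, 340.3 and 509 in reference seed, a log2 change of 0.95 (SE 0.23, limma adjusted p = 0.00713). ATG8I had 5073, 4568 and 5461 in 10 °C seed, against 2473, 2464 and 3239 in reference seed, a log2 change of 0.89 (SE 0.16, limma adjusted p = 0.00133). In neither gene did the 10 °C and reference arrays overlap, and both passed with any 1 array left out. With quantile normalization the change of ATG8I was 0.32 and did not pass (limma adjusted p = 0.155, range 9.64e-06 to 0.414 over its alternatives).

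**Figure D1:**
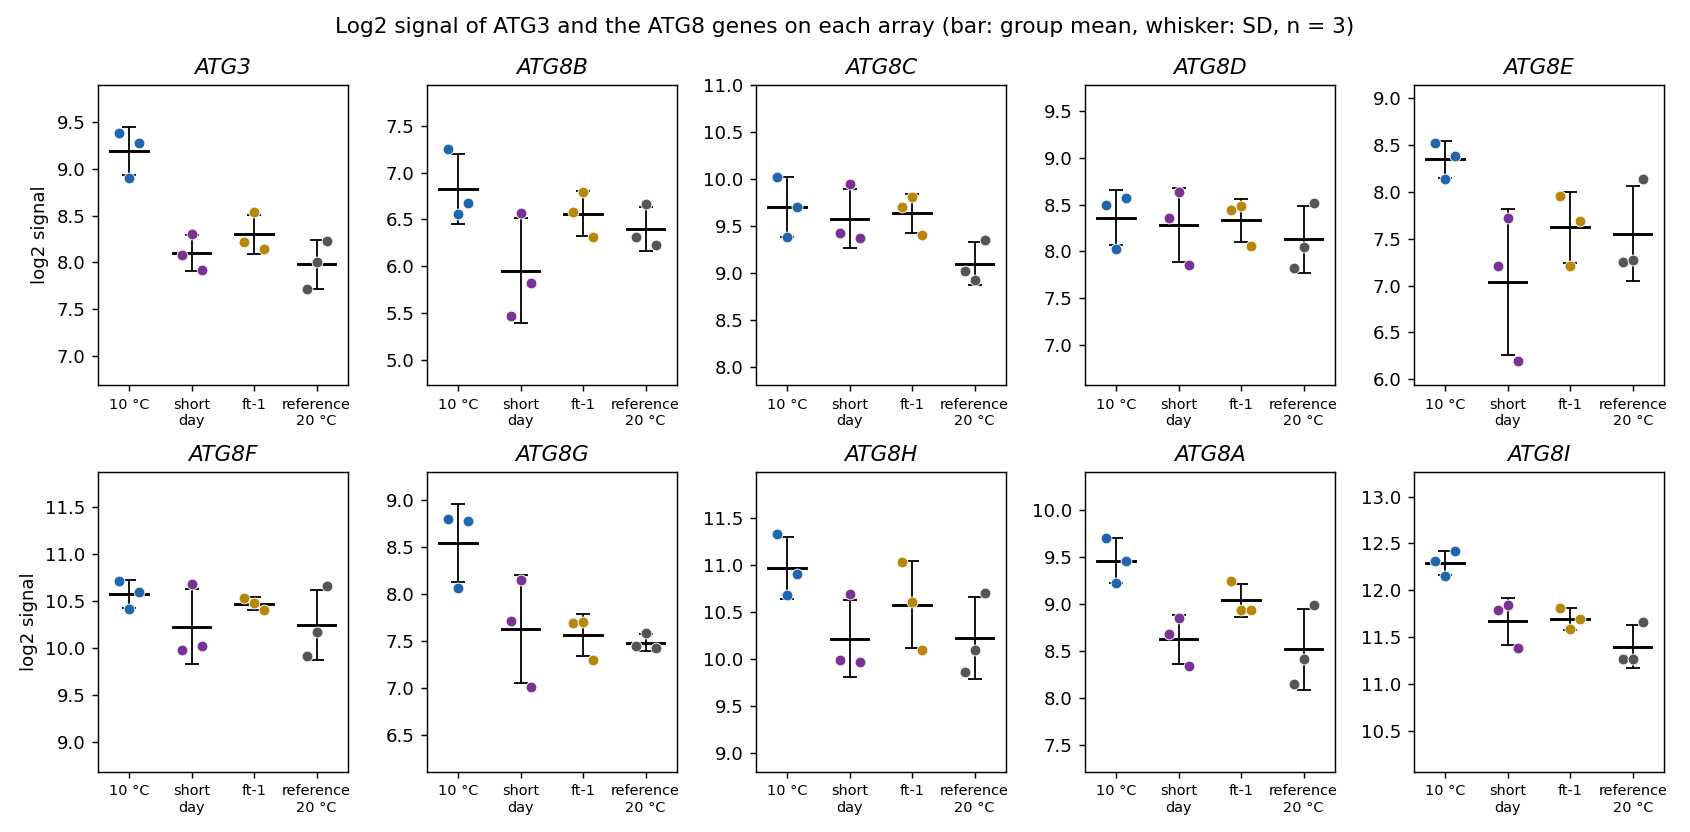
Log2 signal (vertical axis, the same span in each panel) of ATG3 and 9 ATG8 genes in 10 °C, short-day, ft-1 and reference seed from left to right. Points are arrays, bars are group means and whiskers are SD (n = 3). The 10 °C arrays of ATG3 lie at 8.90 to 9.39, above the other 9, while the ATG8D groups overlap.

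RNA from 10 °C seed also differed in array controls and seed markers, and the controls varied among the other groups too. The poly-A control transcripts, bacterial RNAs spiked in before labelling, averaged 8.57 ± 0.40 in 10 °C seed and 6.82 ± 0.27 in reference seed (mean log2 signal, SD, n = 3 each). They averaged 7.71 ± 0.03 in short-day seed, with all arrays above the reference arrays, and 6.54 ± 1.18 in ft-1 seed. The 10 °C arrays lay at 8.12 to 8.85, above all others, of which the highest was 7.875 in ft-1 seed. Adjusting for these controls therefore cannot separate them from the 10 °C treatment. The slope used rests mostly on the spread of the ft-1 arrays. With the poly-A control mean as a covariate 0 of the 8 genes passed, beside 423 of 13648 tested probe sets (4347 without the covariate). Some changes shrank and others grew, but each of the 8 stayed above 0. ATG3 was then at 0.92, ATG8G at 0.79 and ATG8C at 0.395, whereas ATG8E was at 1.36 and ATG8H at 0.84. ATG8F was at 0.385, ATG8D at 0.098 and ATG8B at 0.052. Of the further forms ATG8A was at 1.14 and did not pass, and ATG8I was at 1.06 and passed (limma adjusted p = 0.0185). The hybridisation controls, added after labelling, averaged 10.0 ± 0.0864 in 10 °C seed and 9.32 ± 0.16 in reference seed. They averaged 9.60 ± 0.11 in short-day seed, again with all arrays above the reference arrays, and 9.38 ± 0.26 in ft-1 seed. The 3′ minus 5′ log2 signal of GAPDH, a measure of RNA integrity, was 1.52 ± 0.24 in 10 °C seed and 0.46 ± 0.27 in reference seed for 1 version of its probes, but 0.011 ± 0.125 in 10 °C seed and 0.372 ± 0.0829 in reference seed for the other. The first version gave 1.04 ± 0.56 in short-day seed and 0.96 ± 0.13 in ft-1 seed. The other gave 0.36 ± 0.38 in short-day seed and 0.39 ± 0.18 in ft-1 seed. Of the 4 seed markers given above 3 rose at 10 °C. Of the 6 green tissue markers 2 rose and 2 fell: LHCB4.2 averaged 8.245 in 10 °C seed and 6.57 in reference seed (mean log2 signal) and PSBW 8.41 in 10 °C seed and 6.67 in reference seed, whereas RCA averaged 5.49 in 10 °C seed and 7.47 in reference seed and LHCB4.1 8.575 in 10 °C seed and 9.18 in reference seed. The part of these differences in the ATG3 and ATG8 changes was not tested.

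The sign of some changes depended on how arrays were scaled. When arrays were centred on the hybridisation controls, the median over all tested probe sets moved to -0.85, with 281 higher and 6902 lower, beside 1549 higher and 2798 lower with the deposited scaling. Then 4 of the 8 changes were above 0, 0 passed, and ATG8B, ATG8C, ATG8D and ATG8F were below 0. Such centring moves every gene of an array by the same amount, so the distance of the 8 genes from the median, 0.40 to 1.37 on the log2 scale with the deposited scaling, is fixed by construction and was not tested by it. Quantile normalization is not bound in this way, and there the distance was 0.081 to 1.255. With quantile normalization 8 of 8 changes were above 0, and ATG3 was 1.22 with a median over all probe sets of -0.04. ATG3 and ATG8G are thus the 2 of the 8 genes that passed under each scaling other than the hybridisation controls.

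**Figure D2:**
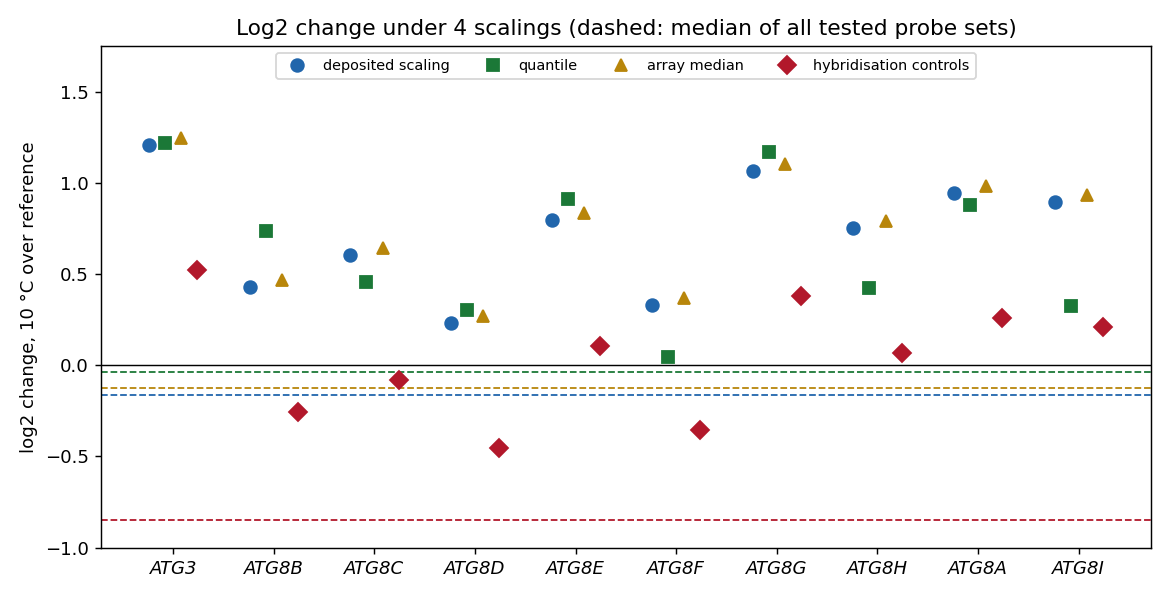
Log2 change of 10 °C over reference seed (vertical axis) for each gene under the deposited scaling and 3 others, with dashed lines at the median of all tested probe sets. Centring on hybridisation controls moves all genes down by the same amount, to a median of -0.85, which places ATG8B, ATG8C, ATG8D and ATG8F below 0.

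In short-day seed none of the 8 genes changed against reference seed by limma (0 of 8, beside 1.78% of all tested probe sets). At an unadjusted p under 0.05 there was 1 of 8, beside 2375 of all 13648 tested probe sets. The median log2 change was 0.06, beside -0.06 over all probe sets, and 4 of 8 were above 0. ATG8C had the largest, 0.48 (SE 0.21, unadjusted p = 0.0388, limma adjusted p = 0.26), with all 3 short-day arrays above the reference. ATG8E and ATG8B had the lowest values, -0.51 (SE 0.35) and -0.44 (SE 0.29). ATG8E signals were 148, 210.2 and 73.2 in short-day seed, so its 3 arrays spanned a wider range than the reference. ATG3 was at 0.12 (95% interval -0.31 to 0.56).

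In ft-1 seed, likewise, 0 of 8 genes changed against reference seed by limma, beside 0.388% of all tested probe sets. At an unadjusted p under 0.05 there was 1, beside 1672 of all 13648 tested probe sets. All 8 changes were above 0, with a median of 0.215 beside -0.06 over all probe sets. ATG8C again had the largest, 0.54 (SE 0.21, unadjusted p = 0.0228, limma adjusted p = 0.311), with all 3 ft-1 arrays above the reference. ATG8A was at 0.52 (SE 0.23, limma adjusted p = 0.365). The 3 comparisons share the reference arrays, so the ATG8C values of 0.60 at 10 °C, 0.48 in short days and 0.54 in ft-1 are given side by side and are not independent. The pollen marker PGA3, the 1 of 7 that was named, was likewise lower in the reference, at 91.1 to 105.5 in 10 °C seed, 119.6 to 125 in short-day seed, 35.5 to 234 in ft-1 seed and 5.22 to 34.7 in reference seed. Its part in the ATG8C values was not tested.

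**Figure D3:**
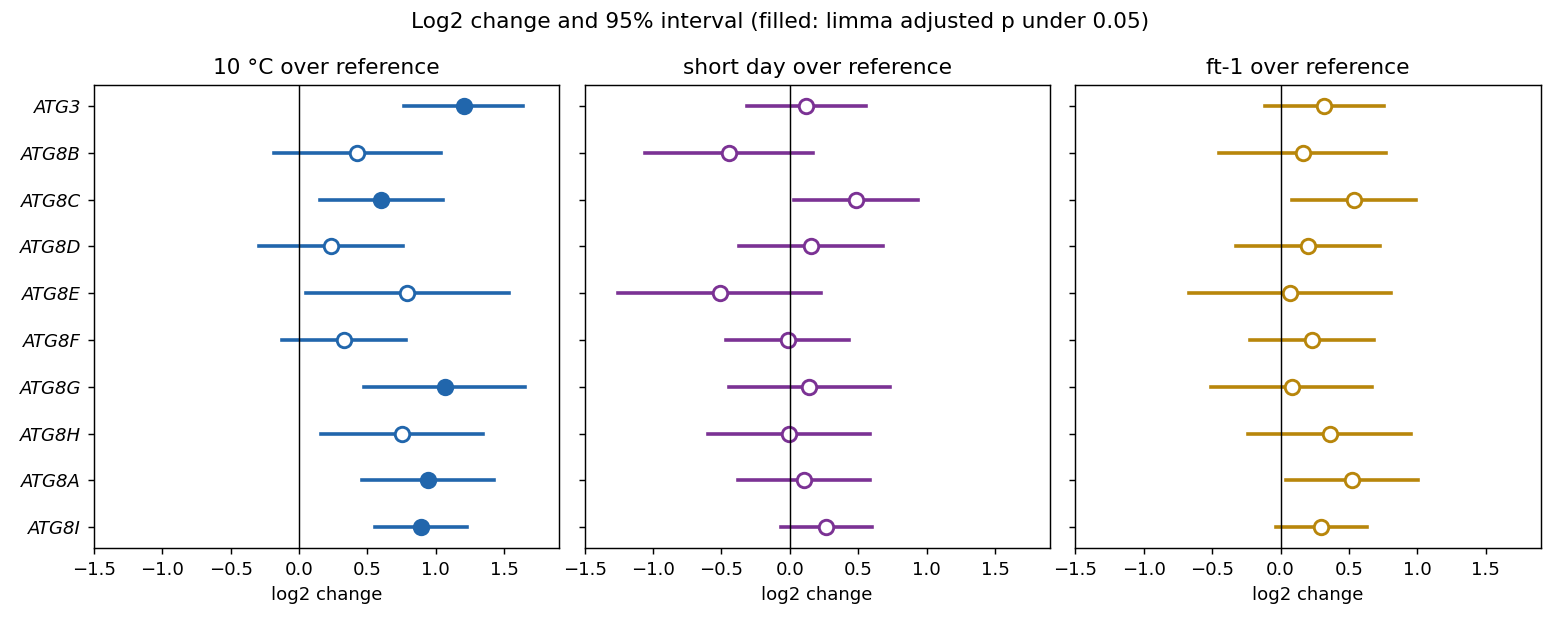
Log2 change over reference seed (horizontal axis) with its 95% interval for 10 °C, short-day and ft-1 seed. Filled points passed limma's test: ATG3, ATG8C, ATG8G, ATG8A and ATG8I at 10 °C, and none in short-day or ft-1 seed.

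Against short-day seed, 10 °C seed had higher ATG3, ATG8E, ATG8G and ATG8B. These 4 of 8 rose and 0 fell, against 17.5% of all tested probe sets that passed and 7.26% that rose. ATG3 had a log2 change of 1.08 (SE 0.20, limma adjusted p = 0.00328) and passed with any 1 array left out. ATG8E had the largest, 1.31 (SE 0.35, limma adjusted p = 0.0203), with no overlap of the arrays. ATG8G was at 0.92 (limma adjusted p = 0.0331) and ATG8B at 0.87 (limma adjusted p = 0.049), and in both short-day array 2 overlapped the 10 °C arrays. The call of ATG8B passed in 8 of 23 alternative settings and was lost without any 1 of the reference arrays, ft-1 array 1 or 3, short-day array 1 or 3, or 10 °C array 1 or 3. ATG8C, which rose against the reference, was at 0.12 (95% interval -0.33 to 0.58) against short days. The count was 1 without short-day array 3, 10 °C array 1 or 10 °C array 3, and 2 without short-day array 1.

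Between ft-1 and 10 °C seed, ATG3 and ATG8G were lower in ft-1 seed, by log2 changes of -0.89 (SE 0.20, limma adjusted p = 0.00724) and -0.98 (SE 0.27, limma adjusted p = 0.0193). These 2 of 8 compare with 24.0% of all tested probe sets that passed and 9.36% that were lower. ATG8I was lower too (-0.60, limma adjusted p = 0.0143), a call that was lost without 10 °C array 3 and, at -0.06, with quantile normalization. Of the 8 genes 1 was lower without ft-1 array 3, 10 °C array 1 or 10 °C array 3, where the call of ATG8G was lost. Between ft-1 and short-day seed 0 of 8 passed by limma, beside 0.176% of all probe sets. At an unadjusted p under 0.05 there were 0, beside 902 of all 13648 tested probe sets.

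Over all 4 groups at once, limma's moderated F test called 2 of 8 genes, ATG3 (adjusted p = 0.00278) and ATG8G (adjusted p = 0.0265), beside 26.7% of all tested probe sets. At an unadjusted p under 0.05 there were 5, beside 5703 of all 13648 tested probe sets. The count of genes called was 1 without reference array 1, 10 °C array 1 or 10 °C array 3, and 4 without short-day array 2. The 10 °C mean was the highest for 8 of 8 genes, and the ft-1 mean came next for 7, with ATG8G the exception. The share of all probe sets with this order is not given here. The genes also share array differences, so these counts only describe the order and are not a result about the family. In ATG3 the step from 10 °C to ft-1 passed and the steps from ft-1 to short day and from short day to reference did not. In ATG8G the step from 10 °C to short day passed and the others did not. In the other 6 genes no neighbouring groups differed by the test, the smallest limma adjusted p being 0.138 for ATG8E between ft-1 and 10 °C.

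The ATG8 forms were next compared with each other by their log2 difference on each array, which no rescaling of a whole array can change. An exact permutation test over the 15400 ways to place 12 arrays in 4 groups asked for each of 21 pairs whether that difference varied over the groups. Of the 21 pairs, 8 had a p under 0.05 and 0 had one after adjustment over the pairs (smallest adjusted p = 0.0781, where the smallest p the exact test can give is 6.5e-05). With all 9 named ATG8 genes, 13 of 36 pairs had an exact permutation p under 0.05 and 0 after adjustment. So no pair of forms was shown to differ in its pattern, and the values of those with the smallest p follow as a description.

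ATG8D minus ATG8G was -0.31, -0.047 and -0.21 in 10 °C seed, 0.65, 0.48 and 0.84 in short-day seed, 0.76, 0.78 and 0.76 in ft-1 seed, and 0.38, 0.46 and 1.09 in reference seed (exact permutation p = 0.0146). The 10 °C arrays were the low ones and did not overlap the other 9. ATG8D minus ATG8E averaged 0.015 ± 0.152 in 10 °C seed, 1.245 ± 0.379 in short-day seed, 0.71 ± 0.49 in ft-1 seed and 0.57 ± 0.20 in reference seed (SD, n = 3 each, exact permutation p = 0.0149). ATG8C minus ATG8G averaged 1.16 ± 0.20 in 10 °C seed, below 1.95 ± 0.35 in short-day seed, 2.08 ± 0.05 in ft-1 seed and 1.62 ± 0.30 in reference seed (SD, n = 3 each, exact permutation p = 0.0108). ATG8B minus ATG8C was lowest in short-day seed, at -3.63 ± 0.30, with -2.88 ± 0.13 in 10 °C seed, -3.08 ± 0.06 in ft-1 seed and -2.70 ± 0.43 in reference seed (SD, n = 3 each, exact permutation p = 0.00487). Each of these 4 had an adjusted p of 0.0781 over the 21 pairs. Without reference array 3, 3 of the 21 pairs passed after adjustment, and without ft-1 array 2, 1 did.

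**Figure D4:**
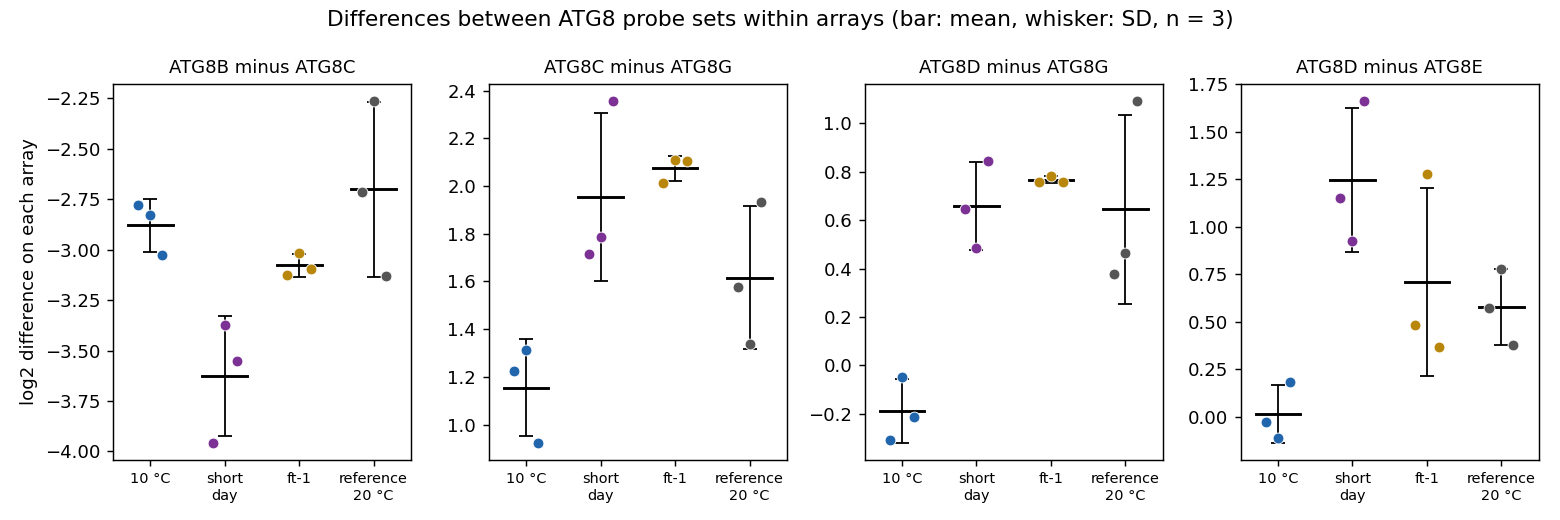
Log2 difference between 2 ATG8 probe sets on each array (vertical axis, its own range in each panel) for the 4 pairs with the smallest exact permutation p, in 10 °C, short-day, ft-1 and reference seed from left to right. Bars are means and whiskers are SD (n = 3). For ATG8D minus ATG8G the 10 °C arrays lie at -0.306 to -0.047, below the other 9.

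Within a group the genes moved together from array to array. Short-day array 2 was the highest of its group for 8 of 8 genes, whereas it was the highest for 33.9% of all tested probe sets. Array 2 from 10 °C was the lowest of its group for 8 of 8 genes and for 30.9% of all probe sets. Array 1 from 10 °C was the highest for 7 of 8 (26.2% of all), and ft-1 array 3 was the lowest for 7 of 8 (26.5% of all). Reference array 3 was the highest for 6 of 8 (39.8% of all), the exceptions being ATG8B and ATG8G. The genes therefore share array differences and are not independent of each other.

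Likeness of pattern was measured as the root mean square difference of log2 signals, each centred on its own mean, over the 12 arrays and against 7584 other tested probe sets with 1 gene. The nearest of them to ATG8H was ATG8A, at 0.193. ATG8D and ATG8F were 0.185 apart, which ranked 15 for ATG8D and 16 for ATG8F. ATG8G was nearest to ATG3 among these 10 genes (0.244, rank 19), and ATG3 to ATG8A (0.230, rank 33). Among these 10 genes ATG8E was the farthest from ATG8B, ATG8C, ATG8D, ATG8F and ATG8H. This measure is not scaled by a gene's own spread over the arrays. The root mean square of that spread was largest for ATG8E (0.625) and smallest for ATG8F (0.276) and ATG8D (0.28). Near and far therefore reflect the size of a gene's variation as well as its pattern.

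Among all genes, the 3 nearest to ATG3 were AT2G17972 (0.159), AT1G22140 (0.161) and GRXC1, a glutaredoxin (0.175). Those nearest to ATG8G were GRXC2, another glutaredoxin (0.178), AT5G27760 (0.196) and AT3G02190 (0.204). ATG8C had AT1G70810 (0.127), AT2G16710 (0.132) and SNF7.1, of the ESCRT membrane machinery (0.143). ATG8F had NRPB6A, an RNA polymerase subunit (0.114), AT2G30350 and AT4G32560, and ATG8D had AT4G22720, AT4G17010 (0.148 each) and NRPB6A (0.166). ATG8H had ATG8A, AT4G25280 (0.194) and AT2G04520 (0.205). The nearest to ATG8B was AT4G40045 (0.220), ahead of AT3G08910 and AT5G22460, and to ATG8E it was AT4G02840 (0.241), ahead of TO2 and AT1G22180.

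The rest of the autophagy pathway was described from a list of 47 other genes, of which 13 had a named probe set, all tested. At 10 °C 0 of these 13 rose and 5 fell against reference seed, beside 20.5% of all tested probe sets that fell. The median log2 change was -0.575, beside -0.16 over all probe sets. That median was 0.15 with the poly-A covariate, where 5 of 13 changes were below 0, -1.26 with hybridisation-control scaling, -0.23 with quantile normalization, -0.321 with an offset of 16, -0.322 without reference array 3 and -0.37 without 10 °C array 3. RAPTOR1B, a partner of the TOR kinase that restrains autophagy, fell by 1.31 on the log2 scale (SE 0.30, limma adjusted p = 0.00592). ATG16, which works with the ATG5 and ATG12 conjugate to place ATG8 on membranes, fell by 0.88 (SE 0.21, limma adjusted p = 0.00788). VPS38, of a phosphatidylinositol kinase complex, fell by 0.67 (limma adjusted p = 0.0335).

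ATG1A, a form of the kinase that starts autophagy, fell by 0.58 (SE 0.20, limma adjusted p = 0.0376). ATG1B, another form, which was singled out after its values were seen, fell by 0.85 (SE 0.31, limma adjusted p = 0.0498). In all 5 genes the 3 arrays from 10 °C lay below the 3 reference arrays. ATG1C showed the same without passing (limma adjusted p = 0.177), while in ATG14A the 10 °C arrays lay above (limma adjusted p = 0.191). The 5 genes were picked by the same comparison, and the share over all probe sets is not given here. Their separation of arrays therefore adds nothing to the calls. ATG4B, the protease that trims ATG8, was at 0.13 (95% interval -0.36 to 0.63) and ATG101, of the ATG1 complex, at 0.34 (95% interval -0.21 to 0.89). The count of 5 was 2 without any 1 of the 3 reference arrays, 10 °C array 1 or 10 °C array 3, and 3 without short-day array 1. It was 0 with the poly-A covariate, under which 199 of 13648 tested probe sets fell. It was 2 with quantile normalization and 8 with hybridisation-control scaling, under which 2094 and 6902 fell. With array weights 5 fell and 1 rose, ATG101, at 0.65 (limma adjusted p = 0.0135). Against short-day seed 2 of the 13, ATG16 and RAPTOR1B, were lower at 10 °C and 0 were higher, beside 1393 lower of 13648. The median was -0.045, beside -0.127 over all probe sets. The same 2 were higher in ft-1 than in 10 °C seed, beside 1994 of 13648, with a median of 0.013 beside 0.126. VPS38, ATG1A and ATG1B passed in neither comparison. ATG1A was at -0.045 for 10 °C over short-day seed.

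In short-day and ft-1 seed 0 of the 13 passed against reference seed by limma, beside 1.78% and 0.388% of all tested probe sets. The median log2 changes were -0.27 and -0.275, beside -0.06 and -0.059 over all probe sets. ATG1A had the smallest adjusted p in both, with a log2 change of -0.53 in short-day seed (SE 0.20, unadjusted p = 0.017, limma adjusted p = 0.183) and -0.56 in ft-1 seed (SE 0.20, unadjusted p = 0.0123, limma adjusted p = 0.244). In short-day seed SH3P2, a membrane-binding protein, was at -0.58 (SE 0.37), RAPTOR1A at -0.63 (SE 0.48) and ATG1C at -0.40 (SE 0.315). In ft-1 seed ATG13B, of the ATG1 complex, was at -1.09 (SE 0.41, unadjusted p = 0.0182, limma adjusted p = 0.279), VPS38 at -0.44 (SE 0.22) and ATG1T at -0.61 (SE 0.37). For ATG13B all 3 ft-1 arrays lay below the reference, as they did for ATG1A and VPS38. These genes were picked by the same comparison, and the share over all probe sets is not given here. The separation of their arrays therefore adds nothing to the test results. ATG13B was dim, with signals of 15.15, 7.14 and 17.52 in ft-1 seed and 28.67, 20.96 and 30.43 in reference seed.

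**Figure D5:**
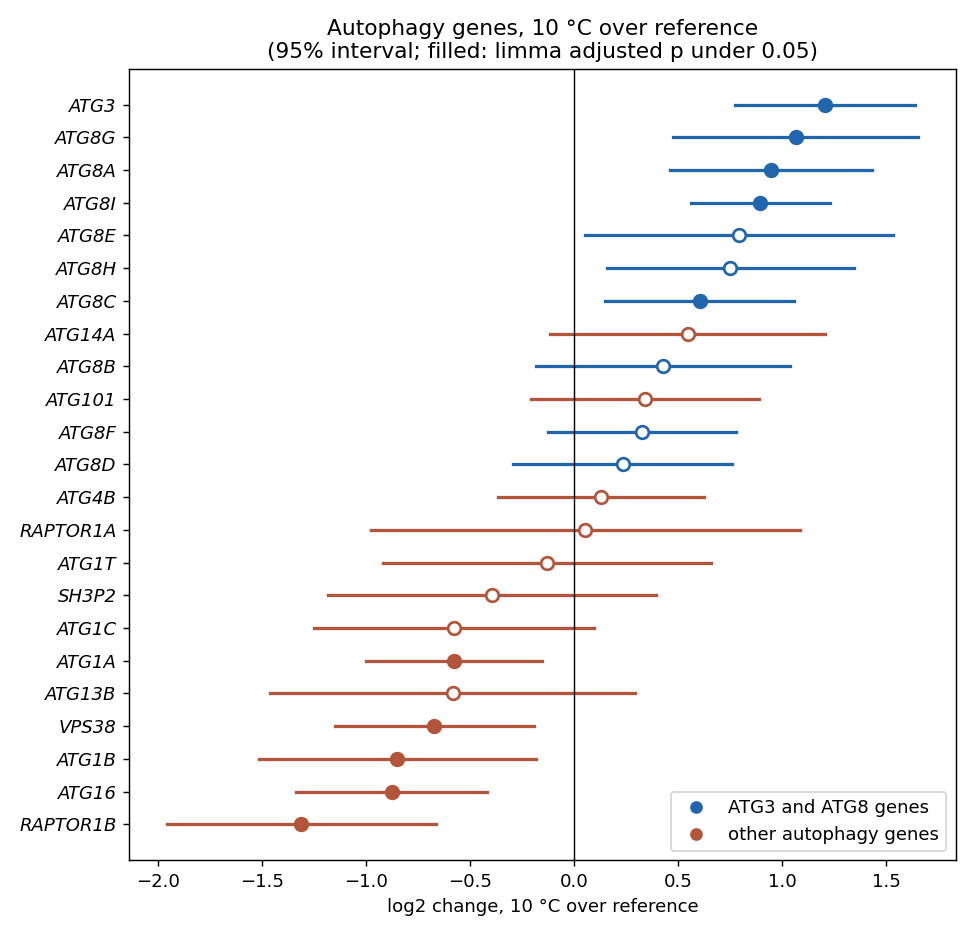
Log2 change of 10 °C over reference seed (horizontal axis) with its 95% interval for ATG3 and 9 ATG8 genes (blue) and 13 other autophagy genes (brown), ordered by change. Filled points passed limma's test; all filled blue points lie above 0 and all filled brown points below 0.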

How the data were processed

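Per the submitters' processing notes the authors made the deposited values, 1 intensity per probe set and array, with MAS5 in GCOS; no version is given in the sources used here. The lowest and highest 2% set aside, each column averages to a fixed value, so intensities are relative to the array's own mean and total RNA per seed cannot be seen. Intensities were log2-transformed with this scaling kept. Of 22746 probe sets that are not controls, the 9098 under the 40th percentile of mean log2 value were not tested (lowest mean tested 2.88).

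Groups were compared with limma 3.58.1 in R 4.3.3: 1 coefficient per group over 12 arrays, an intensity trend in the prior, and two-sided p-values with Benjamini-Hochberg adjustment per comparison. Both the limma step and the permutation step were tested on simulated data. Members and lists were chosen with earlier results of these data known. The rule for names took each ATG3 and ATG8 gene, up to 4 other autophagy genes per comparison with the reference by smallest adjusted p, and the 3 nearest patterns per gene. Gene names came from the platform annotation, updated through TAIR10.1 gene identifiers (13436 of 13513 single-gene probe sets matched). The 10 probe set names carry no mark of shared probes, and cross-hybridisation between forms was not tested. Of 6 seed coat and endosperm markers, 2 were named and neither was bright enough to test. Replicate numbers did not pair samples: same-numbered arrays of different groups had correlations of -0.23 to 0.142 over 18 pairs. Sequences, genome coordinates and detection calls were not used here.

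Alternatives were other scalings (quantile, array median, hybridisation controls), an offset of 16, no filter or one at the 60th percentile, no trend, array weights, only the groups compared, a poly-A covariate, the replicate block, and each array left out. The same alternatives for the other autophagy genes, and the pairs over 9 ATG8 genes, were added later.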

Additional observations from a re-analysis of the deposited data

How the results depend on the processing

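Of 8 genes, 3 passed for 10 °C against reference seed; the count was 0 with hybridisation-control scaling, 0 with the poly-A covariate, 6 with array weights, 5 with only the groups compared, and 1 to 5 with 1 array left out. For 10 °C against short-day seed 4 passed, with 2 after median centring, 0 with hybridisation controls, 2 with no trend, 2 with the poly-A covariate and 1 to 5 with 1 array left out. For ft-1 against 10 °C seed 2 passed, with 0 under hybridisation controls, 0 under the poly-A covariate and 1 to 2 with 1 array left out. Over the 4 groups 2 passed, with 0 under hybridisation controls, 1 with no trend, 7 with array weights and 1 to 4 with 1 array left out. Array weights gave 1 for short-day against reference, 2 for ft-1 against reference and 2 for ft-1 against short-day seed, where every other setting gave 0. Pairs of forms that passed numbered 0, and 0 to 3 with 1 array left out. Of the other autophagy genes 5 passed, with 2 under quantile normalization, 3 under median centring, 8 under hybridisation controls, 2 with no filter, 6 (1 of them higher) with array weights, 0 under the poly-A covariate, 2 under the replicate block and 2 to 5 with 1 array left out. 2 values changed sign after a call: under hybridisation controls ATG8C was at -0.082 for 10 °C over reference and ATG8I at 0.025 for ft-1 over 10 °C. For values that passed in neither setting, 69 of 1030 changed sign. The cause was not tested.

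ATG3 at 10 °C over reference passed in 21 of 23 alternatives (log2 change 0.52 to 1.401), ATG8G in 20 and ATG8C in 10. With the replicate block, 2 of 8 genes passed for 10 °C against reference (ATG8C adjusted p = 0.0679 by limma, range 0.00133 to 0.816 over its alternatives) and 3 for 10 °C against short-day seed. Replicate numbers are not a shared source, so a call lost under the block is not read as a weaker effect. Over all probe sets the counts for 10 °C against reference ran from 423 with the poly-A covariate to 7183 with hybridisation-control scaling (main 4347). They ran from 64 to 2447 (243) for short-day and 0 to 1767 (53) for ft-1 against reference. They ran from 1055 to 4955 (2384) for 10 °C against short-day, 0 to 2295 (24) for ft-1 against short-day, 724 to 6826 (3271) for ft-1 against 10 °C, and 1619 to 8203 (3650) over the 4 groups.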
